A study of Homo sapiens with 8 samples.

Results

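Endothelial to mesenchymal transition is the programme by which endothelial cells lose junctions and vessel identity and take on features of fibroblasts or smooth muscle cells. It was examined through 10 genes, chosen by name from the 23346 genes of the deposited table. They were 6 transcription factors (SNAI1, SNAI2, ZEB1, ZEB2, TWIST1 and TWIST2), the intermediate filament gene VIM, and the contractile genes TAGLN, ACTA2 and CNN1. All 10 were in the table. RNA sequencing of polyadenylated RNA was done on 8 replicates of hCMEC/D3, an immortalised human brain microvascular endothelial line used as a blood-brain barrier model. All replicates formed 1 group, and the labels gave no genotype, agent or time point, so there was no comparison of conditions. The labels did not say whether replicates were separate cultures, so p-values measure only the spread between these libraries, which may be technical.

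In this programme, signals such as TGF-beta raise zinc finger factors of the Snail and ZEB families and basic helix-loop-helix factors of the Twist family. Snail and ZEB proteins bind E-box sequences and repress junction genes, with cadherins as the best known targets. Vimentin, transgelin, smooth muscle actin and calponin are effectors read as signs of a mesenchymal or contractile state. Endothelial cells in culture normally contain vimentin, so VIM alone does not mark the transition.

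Libraries held 69388544 to 90205244 counts, and every count was even, so the smallest step was 2 counts, called 1 read pair here. Replicates 2, 7 and 8 stood apart. Their levels fell with transcript length relative to the gene means (slopes of -0.215, -0.102 and -0.325 log2 units per doubling of length), against slopes of 0.0815 to 0.142 in the other 5. Values are therefore given per library, as CPM (counts scaled to the library total, with TMM factors) and, where it matters, on the authors' conditional quantile normalised values (CQN, log2 scale), which adjust for length and GC content. The marker lists were chosen with earlier results of these data known. Of the endothelial markers, 15 of 15 were at 1 CPM or more in every library, with a summed level of 3788 to 6150 CPM. NOS3, an endothelial gene outside the marker list, had a mean of 0.920 CPM and did not meet this threshold. Of all genes in the table, 51.3% met this threshold. It was met by 6 of 10 mural cell, 3 of 10 fibroblast, 3 of 8 epithelial, 1 of 6 leukocyte and 2 of 8 neuron and glia markers. Summed levels of these lists were 167 to 191, 148 to 213, 318 to 511, 47.0 to 85.0 and 27.5 to 48.6 CPM. The mural list was led by ANPEP (114.5 CPM), CSPG4 (32.9) and RGS5 (14.4), while KCNJ8, NOTCH3 and DES were below 1 CPM. The fibroblast list was led by COL1A2 (134 CPM), COL1A1 (33.5) and THY1 (4.55), while DCN, LUM and PDGFRA were below 1 CPM. The part of other cells in the results was not tested. In bulk RNA, fewer cells of a type and less RNA per cell cannot be told apart.

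At a level of at least 1 CPM in every library, called detected here, 8 of the 10 genes were detected, against 51.3% of all genes in the table. The exceptions were TWIST1, which was close to 0, and SNAI2, which fell below the threshold in replicate 2 alone. Without replicate 2, 9 genes were detected.

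ZEB1 was the most abundant of the 6 factors and ZEB2 the next by CPM. Both encode repressors with zinc finger clusters at either end of the protein that bind E-boxes and recruit CtBP corepressors. ZEB1 (chromosome 10, 31608101 to 31818742, plus strand, 9 exons, GRCh37) had 83.4, 39.9, 81.8, 77.9, 70.8, 80.4, 49.8 and 35.6 CPM in replicates 1 to 8. ZEB2 (chromosome 2, 145141942 to 145277958, minus strand, 10 exons) had 26.1, 12.7, 26.1, 25.5, 23.2, 23.4, 19.8 and 11.97 CPM. Both genes were lowest in replicates 2, 7 and 8, the libraries with falling length slopes, and both have long transcripts (5937 and 9265 bases). The means were 64.96 ± 19.9 and 21.1 ± 5.79 CPM (SD, n = 8). On the CQN scale the spread of ZEB1 shrank from an SD of 0.50 to 0.11 log2 units, and its values ran from 5.69 to 5.95. Replicates 2, 7 and 8 stayed the lowest for ZEB1 (5.691, 5.692 and 5.704, against 5.851 to 5.954 in the others). ZEB2 on that scale was highest in replicates 7 and 8 (4.33 and 4.17) and lowest in replicate 6 (3.69), so its order of libraries turned over.

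The ratio of ZEB1 to ZEB2 varied little between libraries per length, and more on CQN values (SD 0.30). Per transcript length, as CPM per kilobase of transcript (RPKM), ZEB1 exceeded ZEB2 by a log2 ratio of 2.20 ± 0.13 in 8 of 8 libraries (exact sign-flip permutation p = 0.00781, adjusted p = 0.00925, n = 8). This adjustment was over all 45 pairs of the 10 genes, and 0.00781 is the smallest p this test can give with 8 libraries. Antisense genes were measured as well. ZEB1-AS1, which lies beside ZEB1, had 5.61 ± 0.707 CPM (SD, n = 8), and ZEB2-AS1, which overlaps ZEB2, had 4 counts in all.

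The miR-200 family are the microRNAs known to repress ZEB1 and ZEB2, and ZEB proteins repress the miR-200 genes in turn. Their mature sequences are shown because the matching sites distinguish both ZEB messages from most others. They fall into 2 groups by seed (bases 2 to 8, in capitals), from RefSeq on GRCh38.p14.
miR-200b-3p: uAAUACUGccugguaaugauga
miR-200c-3p: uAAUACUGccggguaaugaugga
miR-429: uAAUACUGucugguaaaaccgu
miR-200a-3p: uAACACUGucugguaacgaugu
miR-141-3p: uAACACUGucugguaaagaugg
A search of the sense strand for CAGTATT, the match to the first seed, found 6 copies in the ZEB1 3′ UTR (2540 bases) and 5 in that of ZEB2 (5370 bases). CAGTGTT, the match to the second seed, was found 3 and 4 times. These 7-base words do not overlap each other. Among 3′ UTRs at least as long as that of ZEB1, 41.7% held any CAGTATT and 0.04% held as many. Among those at least as long as that of ZEB2 the shares were 58.6% and 0.63%. For CAGTGTT, 4.12% of the 3′ UTRs as long as that of ZEB1 and 4.23% of those as long as that of ZEB2 held as many. The first copy of each word in each gene is shown, with the match in capitals, on GRCh37.
ZEB1 chr10:31816547-31816568, plus strand: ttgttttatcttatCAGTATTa
ZEB1 chr10:31816960-31816981, plus strand: aaaatcatcagaatCAGTGTTt
ZEB2 chr2:145146619-145146640, minus strand: gcactaccatacatCAGTATTt
ZEB2 chr2:145146803-145146824, minus strand: gcaaaaattttgtaCAGTGTTa
A sequence match is a description and not a measured site. In the table, MIR200A, MIR200B, MIR200C and MIR429 had 0 counts in all 8 libraries. With 0 counts, the upper limit was 0.0665 to 0.0865 CPM depending on the library (3 read pairs, counting error only). MIR141 had 4 counts, in replicate 3. Polyadenylated RNA libraries do not capture mature microRNAs, so these counts concern only longer transcripts over the hairpins.

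SNAI1 varied between libraries in an order that did not follow the length slopes. It encodes Snail, an unstable zinc finger repressor whose transcript is known to respond quickly to growth factors and TGF-beta. SNAI1 (chromosome 20, 48599513 to 48605420, plus strand, 3 exons) had 8.07, 17.1, 12.3, 12.8, 22.1, 19.5, 12.03 and 9.77 CPM in replicates 1 to 8, a mean of 14.2 ± 4.88 CPM (SD, n = 8). Replicates 5 and 6 were the highest and replicates 1 and 8 the lowest, so each side held at least 1 library with a rising slope. On the CQN scale the same libraries stood out, with 5.74 and 5.63 in replicates 5 and 6 against 4.35 and 3.82 in replicates 1 and 8. The SD was 0.49 log2 units on log2(CPM + 0.1) and 0.63 on CQN values, larger than that of 98.3% of detected genes on the latter scale.

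SNAI2, which encodes Slug, was far lower than SNAI1. SNAI2 (chromosome 8, 49830239 to 49833999, minus strand, 3 exons) had 2.02, 0.753, 3.75, 2.42, 4.02, 3.25, 4.04 and 1.40 CPM in replicates 1 to 8 (mean 2.71 ± 1.25, SD, n = 8). Replicates 2 and 8 were the lowest, and replicate 7, which shares their kind of slope, was the highest. The depth behind these values was 34 to 166 read pairs per library. Per length, SNAI1 exceeded SNAI2 by a log2 ratio of 2.73 ± 0.82 in 8 of 8 libraries (exact sign-flip permutation p = 0.00781, adjusted p = 0.00925, n = 8). The third family member, SNAI3, had 0.644 ± 0.188 CPM (SD, n = 8), and SCRT1 and SCRT2, of the related Scratch group, had means of 0.266 and 0.00304 CPM.

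Of the Twist pair, which bind DNA as dimers with E proteins, only TWIST2 was measurable in every library. TWIST1 (chromosome 7, 19155091 to 19157295, minus strand, 2 exons) had 9 read pairs among 311533107 in all libraries, or 0.0289 CPM over the pooled libraries without TMM scaling (exact Poisson 95% interval 0.0132 to 0.0548, counting error only). It had no counts in replicates 1, 2, 3 and 5. TWIST2 (chromosome 2, 239756673 to 239795893, plus strand, 2 exons) had 2.35, 3.28, 2.07, 2.56, 2.57, 1.62, 2.95 and 4.05 CPM in replicates 1 to 8 (mean 2.68 ± 0.748, SD, n = 8). Its level was highest in replicates 8 and 2 and lowest in replicate 6. On CQN values replicates 2 and 8 lay within the range of the others (2.36 and 2.42, all libraries 2.01 to 2.69). Pooled in the same way, TWIST2 had 849 read pairs, or 2.73 CPM (exact Poisson 95% interval 2.54 to 2.91), so it accounted for nearly all Twist counts.

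**Figure D1:**
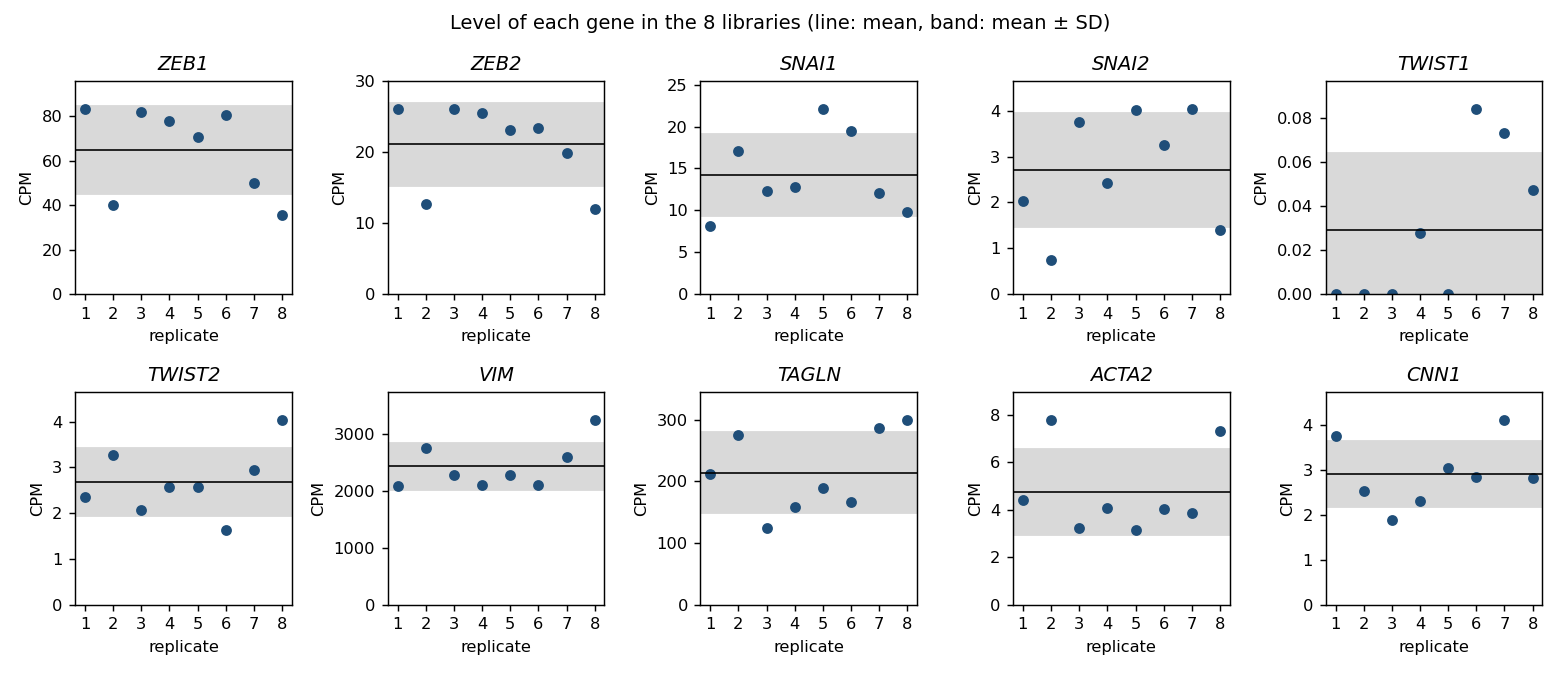
CPM of each of the 10 genes (vertical axes, linear, starting at 0) in replicates 1 to 8 (horizontal axes), with the mean as a line and mean ± SD as a band. ZEB1 and ZEB2 are lowest in replicates 2, 7 and 8, SNAI1 is highest in replicates 5 and 6, and ACTA2 is highest in replicates 2 and 8.

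VIM stood among the most abundant messages of the cells. It encodes vimentin, the intermediate filament protein of mesenchymal and endothelial cells. VIM (chromosome 10, 17270258 to 17279592, plus strand, 10 exons) had 2097, 2755, 2282, 2102, 2290, 2104, 2606 and 3261 CPM in replicates 1 to 8. Its mean CPM exceeded that of 99.9% of detected genes. Replicates 8, 2 and 7 were the highest 3, and the other 5 lay within 2097 and 2290 CPM. With the trends on length and GC content removed, the SD of VIM fell from 0.23 to 0.071 log2 units. The CQN scale shows less for this gene, since its 8 CQN values took 5 distinct levels between 11.64 and 11.74. DES, the muscle relative of VIM, had 0.180 ± 0.101 CPM (SD, n = 8).

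TAGLN was the only abundant contractile gene of the 3. It encodes transgelin (SM22), an actin-binding protein of smooth muscle that also appears in cultured non-muscle cells. TAGLN (chromosome 11, 117070040 to 117075508, plus strand, 5 exons) had 212, 276, 124.5, 159, 189, 167, 287 and 300.2 CPM in replicates 1 to 8 (mean 214 ± 65.9, SD, n = 8). Replicates 8, 7 and 2 were the highest and replicate 3 the lowest. On CQN values replicate 1 was the highest (9.14), replicate 7 the next (9.11), and replicate 3 still the lowest (8.38). The reference transcript of TAGLN is 3786 bases, but only 1114 of these lie within the interval listed in the table, so its level per length is 56.6 ± 17.4 RPKM with the whole transcript and 192 ± 59.2 RPKM with the listed part (SD, n = 8). TAGLN2, the paralog common outside muscle, had 843 ± 180 CPM (613 ± 131 RPKM), and its lowest library in CPM (686) lay above the highest for TAGLN. TAGLN3 had 0.237 CPM. LOC100652768, which overlaps TAGLN, had 1.94 to 3.97 CPM.

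ACTA2 and CNN1, which encode smooth muscle actin and calponin, were detected at low levels. ACTA2 (chromosome 10, 90694831 to 90751147, minus strand, 9 exons) had 4.402, 7.80, 3.22, 4.08, 3.16, 4.03, 3.87 and 7.33 CPM in replicates 1 to 8 (mean 4.74 ± 1.80, SD, n = 8). Replicates 2 and 8 were set apart from the other 6, which reached at most 4.402 CPM. They were also the highest on the CQN scale, at 3.74 and 3.53 against 2.89 to 3.36. The nonmuscle actin gene ACTB, close to ACTA2 in coding sequence, had 5091 and 5542 CPM in these libraries, 4439 in replicate 7 and 3234 to 3533 in the others. The CQN values of ACTB did not set replicates 2 and 8 apart, at 12.02 in replicates 1, 2, 3, 4 and 6 and 12.13 in replicates 5, 7 and 8. How reads shared between actin genes were counted was not given in the sources used here, and its part in the ACTA2 values was not tested. FAS overlaps ACTA2 and had 7.83 to 11.03 CPM, with its lowest value in replicate 8.

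CNN1 (chromosome 19, 11649579 to 11661138, plus strand, 7 exons) had 3.76, 2.53, 1.89, 2.31, 3.03, 2.83, 4.12 and 2.81 CPM in replicates 1 to 8 (mean 2.91 ± 0.732, SD, n = 8). Replicates 7 and 1 were the highest and replicate 3 the lowest. On CQN values replicates 2 and 8, where ACTA2 was highest, were the lowest for CNN1, at 2.15 each, and replicate 1 was the highest at 3.27. The SD of CNN1 was 0.35 log2 units on log2(CPM + 0.1) and 0.43 on CQN values. The latter was larger than that of 93.7% of detected genes. The paralogs CNN2 and CNN3 were far more abundant, with 264 ± 56.8 and 301 ± 18.7 CPM (SD, n = 8). Other muscle actins were lower than ACTA2, with 0.668 CPM for ACTG2, 1.08 for ACTC1 and 0.139 for ACTA1.

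Per transcript length, the 10 genes ran from VIM at 1131 ± 192 RPKM to TWIST1 at 0.0178 ± 0.0216 RPKM (SD, n = 8). Between them stood, in order, TAGLN (56.6), ZEB1 (10.9), SNAI1 (8.33), ACTA2 (3.51), TWIST2 (2.98), ZEB2 (2.28), CNN1 (1.94) and SNAI2 (1.24 RPKM). Only 649 of the 901 bases of the TWIST2 transcript lie within its listed interval. With the listed part alone TWIST2 had 4.13 RPKM, above ACTA2. The median over detected genes with a length was 11.4 RPKM, so VIM and TAGLN lay above it and the other 8 below. ZEB1 stood above 48.8% of the detected genes per length and ZEB2 above 15.9%. Of the 45 pairs, 40 passed the exact sign-flip permutation test at an adjusted p under 0.05, and 38 had the same direction in every library.

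The 5 pairs that did not pass lay in the middle of this order, between ranks 3 and 8, and their calls depended on the scale. ZEB1 exceeded SNAI1 in 6 of 8 libraries by a log2 ratio of 0.39 ± 0.67 (exact permutation p = 0.148, adjusted p = 0.159, n = 8). On CQN values it did so in 8 of 8 libraries by 0.95 (adjusted exact permutation p = 0.00937), and with the union of all annotated exons as the length the ratio was -0.14. ACTA2 exceeded TWIST2 in 6 of 8 libraries by 0.20 ± 0.35 (exact permutation p = 0.156, adjusted p = 0.164, n = 8). This pair passed in opposite directions under other settings. ACTA2 was higher in 8 of 8 libraries on CQN values (TWIST2 to ACTA2 -0.80, adjusted exact permutation p = 0.00937), and TWIST2 in 8 of 8 with the union of exons (0.86, adjusted exact permutation p = 0.00977). ZEB2 was not resolved from TWIST2, ACTA2 or CNN1 per length, with adjusted p-values of 0.264, 0.0772 and 0.344 in the exact permutation test (n = 8). On CQN values ZEB2 exceeded each of them in 8 of 8 libraries, by 1.49, 0.69 and 1.28 (adjusted exact permutation p = 0.00937 each). With the union of exons TWIST2 exceeded ZEB2 in 8 of 8 libraries (ZEB2 to TWIST2 -0.90, adjusted exact permutation p = 0.00977). With exons within the listed intervals it did so in 7 of 8 (ZEB2 to TWIST2 -0.79, adjusted exact permutation p = 0.0176). TWIST2 exceeded CNN1 by 0.58 ± 0.47 in 7 of 8 libraries (adjusted exact permutation p = 0.027, n = 8), but the direction turned on CQN values (-0.21). This call was lost without any single replicate other than replicates 1 and 6 (adjusted exact permutation p from 0.0514 to 0.0541). CNN1 exceeded SNAI2 by 0.72 ± 0.80 in 7 of 8 libraries (adjusted exact permutation p = 0.0352, n = 8), and this call was lost on CQN values (adjusted p = 0.132), with either other length, and without any single replicate other than replicate 3. ACTA2 exceeded CNN1 by 0.78 ± 0.59 in 8 of 8 libraries (adjusted exact permutation p = 0.00925, n = 8), but with the union of all annotated exons as the length the ratio was -0.29. ZEB2, TWIST2 and ACTA2 each exceeded SNAI2 in 8 of 8 libraries, but not in every setting. With the union of exons, ZEB2 to SNAI2 was 0.07 and SNAI2 to ACTA2 -0.10 (adjusted exact permutation p = 0.76 and 0.847). On CQN values SNAI2 to TWIST2 was -0.21 (adjusted exact permutation p = 0.469).

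**Figure D2:**
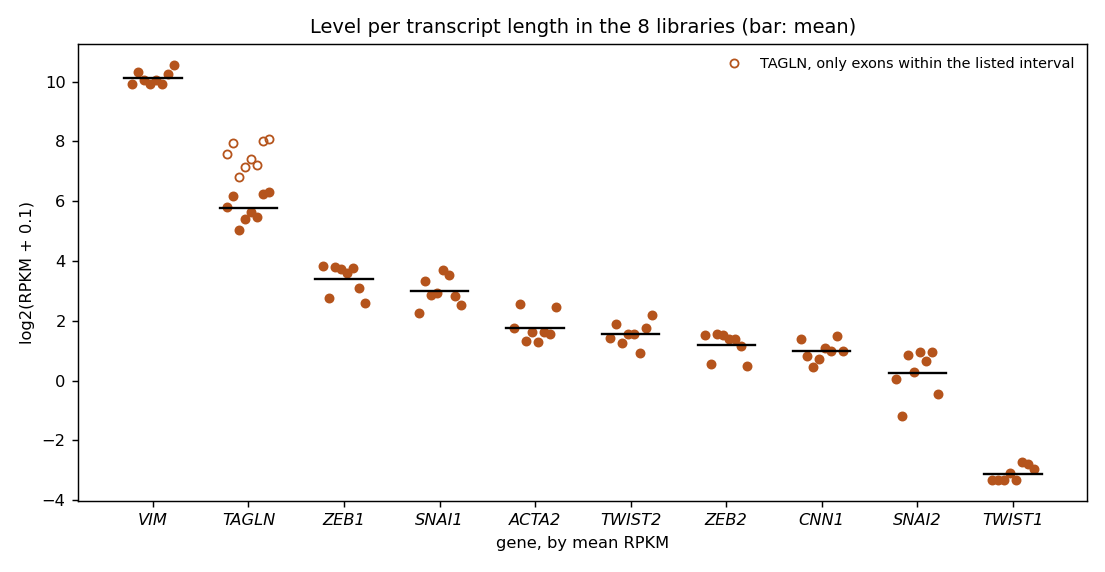
Level per transcript length, as log2(RPKM + 0.1) on the vertical axis, of the 10 genes ordered by mean RPKM. Points are the 8 libraries and bars their means, and open points show TAGLN with only the 1114 bases of exon within its listed interval. VIM and TAGLN stand above all others, 6 genes from ZEB1 to CNN1 overlap with their neighbours, and TWIST1 is at the bottom.

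Whether a gene varied between replicates more than genes of the same abundance was tested in edgeR by the goodness of fit of each gene to the dispersion trend, over all 11980 detected genes. None of the 8 detected genes passed at a Benjamini-Hochberg adjusted p under 0.05, where 4.66% of all tested genes did. Here and below, each share of all genes that varied beyond the trend is a share of the genes tested in that setting. At an unadjusted p under 0.05 there was 1, ZEB1 (edgeR adjusted p = 0.359). ACTA2 came next (edgeR adjusted p = 0.432), then TAGLN and SNAI1, and VIM had 1.0. With DESeq2 size factors none of the 8 passed (4.71% of all genes), nor with counts halved (4.63%). With the DESeq2 fitted trend, which called 23.5% of all genes, 5 of the 8 passed (ZEB1, ZEB2, SNAI1, TAGLN and ACTA2).

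The result for SNAI1 depended on the length trends. Once the dependence on length and GC content was taken out of each library, SNAI1 varied beyond the trend (edgeR adjusted p = 1.24e-04) and so did TAGLN (edgeR adjusted p = 0.0198), 2 of 8 genes against 6.59% of all genes. With lengths limited to the listed intervals, SNAI1 passed (edgeR adjusted p = 1.36e-04) and TAGLN did not (edgeR adjusted p = 0.884), with 6.45% of all genes called. Without replicates 2, 7 and 8 together, SNAI1 (edgeR adjusted p = 1.72e-10) and TAGLN (edgeR adjusted p = 0.00176) passed among 9 genes tested, where 2.42% of all genes did. SNAI2 was too low in replicate 2 to enter the first test. With a minimum of 10 counts in place of the CPM threshold it passed (edgeR adjusted p = 0.0192, with 4.36% of all genes called), as it did with no such filter (edgeR adjusted p = 0.0443, with 3.26% called). It did not pass without replicate 2 (edgeR adjusted p = 0.276) or without replicates 2, 7 and 8 (edgeR adjusted p = 0.111).

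**Figure D3:**
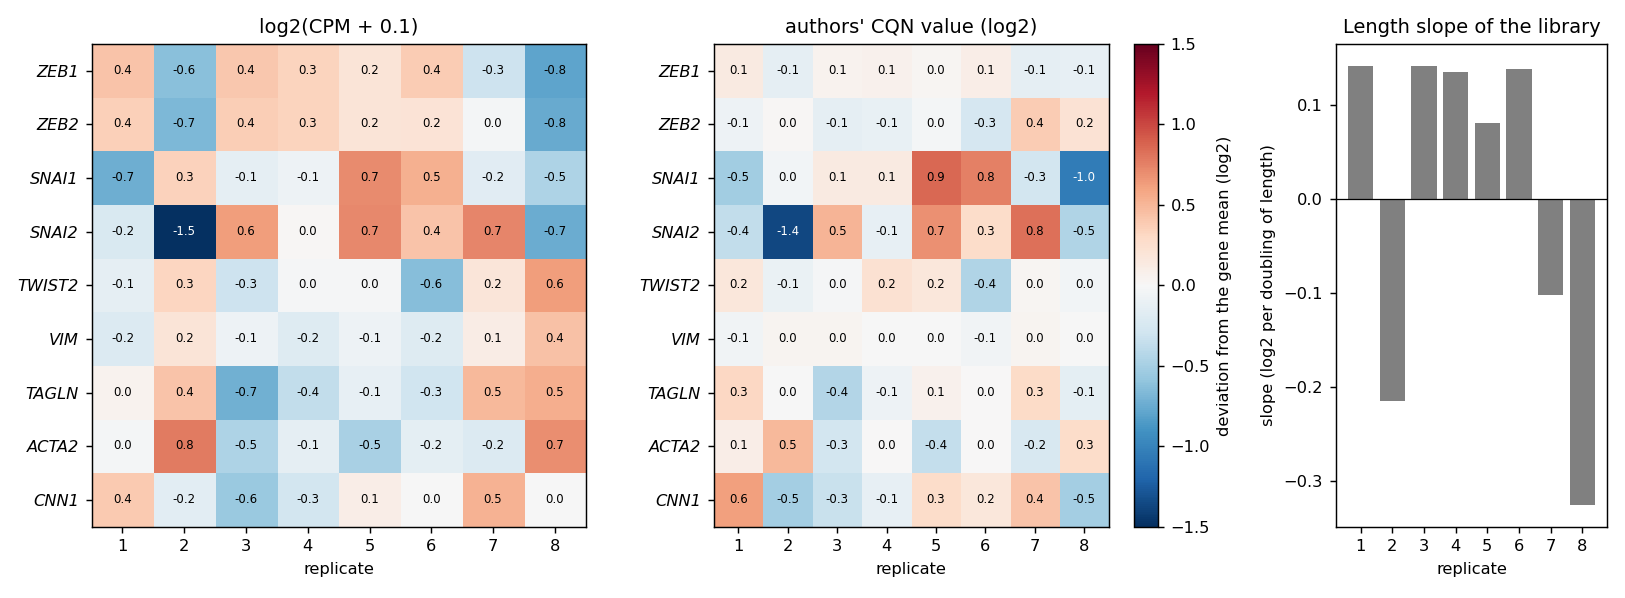
Deviation of each library (columns, replicates 1 to 8) from the gene's mean in log2 units, on log2(CPM + 0.1) at the left and on the authors' CQN values in the middle, for the 9 genes with CQN values, with the length slope of each library at the right. The deviations of ZEB1, ZEB2 and VIM nearly vanish or turn over on the CQN scale, while SNAI1 and SNAI2 still spread, with SNAI2 in replicate 2 (CQN value 0.879) the farthest below its mean.

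Relations among the 10 genes over the 8 libraries were mostly a matter of scale. On log2(CPM + 0.1), 6 of 45 pairs had an adjusted exact permutation p under 0.05 for Pearson's r, and on CQN values 1 of 36 pairs did. ZEB1 and ZEB2 rose and fell together in CPM (r = 0.968, exact permutation p = 3.47e-04, adjusted p = 0.00781, n = 8; rho = 0.952, exact permutation p = 0.00114, adjusted p = 0.0502). Leaving out replicates 2 and 8 gave r = 0.929. On CQN values the sign turned (r = -0.823, exact permutation p = 0.00627, adjusted p = 0.113, n = 8; rho = -0.762, exact permutation p = 0.0368, adjusted p = 0.441), with r = -0.878 without replicates 2 and 7. Among replicates 1 and 3 to 6, without the 3 libraries of falling slope, r was 0.690 in CPM and -0.360 on CQN values.

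SNAI2 and ACTA2 were the pair that passed on both scales, in opposite directions to each other. ACTA2 was highest where SNAI2 was lowest (r = -0.957 on CQN values, exact permutation p = 2.73e-04, adjusted p = 0.00982, n = 8; rho = -0.929, exact permutation p = 0.00223, adjusted p = 0.0804). Without replicates 2 and 7, the farthest from the SNAI2 median, r was -0.942, and without replicates 2, 7 and 8 it was -0.918 over 5 libraries. In CPM, r was -0.938 (exact permutation p = 2.98e-04, adjusted p = 0.00781, n = 8; rho = -0.929, exact permutation p = 0.00223, adjusted p = 0.0502), and -0.773 without replicates 2 and 8. The rank correlations did not pass after adjustment. This relation was singled out after all pairs had been computed.

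**Figure D4:**
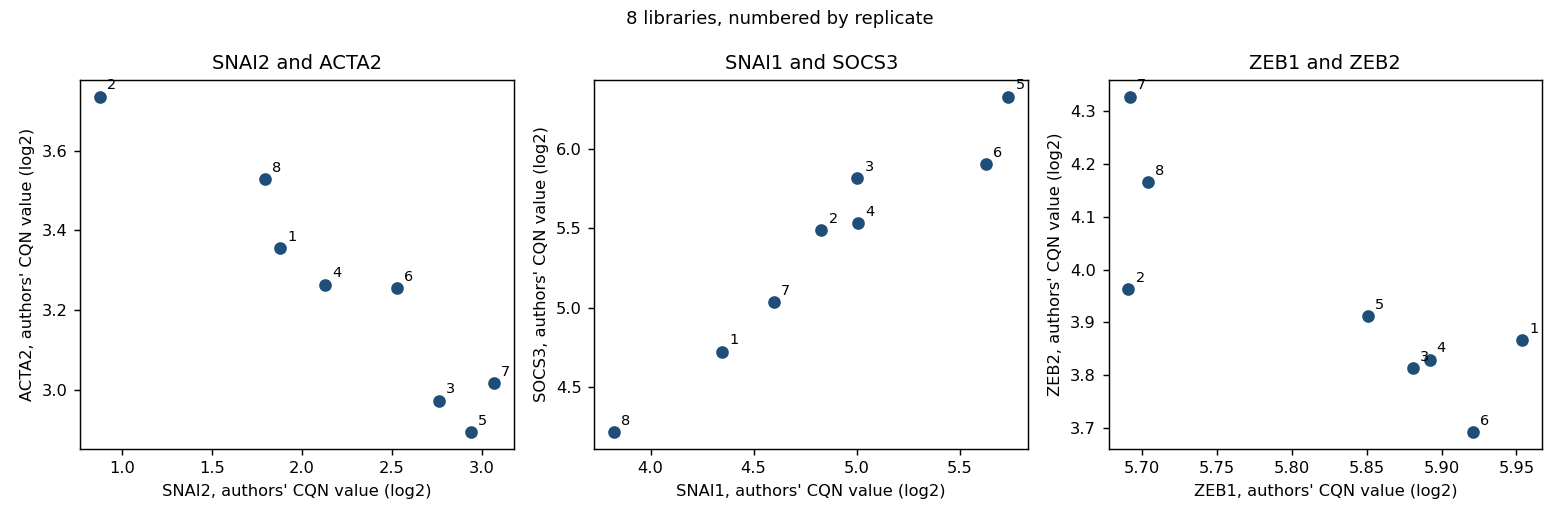
The authors' CQN values (log2 scale on both axes) of SNAI2 and ACTA2, of SNAI1 and SOCS3, and of ZEB1 and ZEB2, with 1 point per library labelled by replicate number. ACTA2 falls as SNAI2 rises (r = -0.957), SOCS3 rises with SNAI1 (r = 0.968), and for ZEB1 and ZEB2 replicates 2, 7 and 8 lie apart at the left. SOCS3 was picked for the highest r with SNAI1 among 11979 genes.

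The genes most like each detected one were sought among the other 11979 detected genes by Pearson's r of CQN values over the 8 libraries, as a description with no p. For SNAI1 these were SOCS3 (r = 0.968), an inhibitor of cytokine signalling, MIDN (r = 0.954) and KLF10 (r = 0.953), a zinc finger factor. SOCS3 had 39.5 CPM in replicate 5 and 12.6 and 13.4 CPM in replicates 1 and 8, the extremes of SNAI1 as well. For CNN1 the closest was TGFB2 (r = 0.968), a TGF-beta ligand, followed by C4orf46 (0.960) and C5orf46 (0.951). For ACTA2 they were MAPK3 (0.992), COQ5 (0.991) and CASP1 (0.988), and for TAGLN RCHY1 (0.971), ARHGAP35 (0.950) and POFUT2 (0.932). For ZEB1 they were TMEM2 (0.994), PPIB (0.990) and ZDHHC20 (0.987), and for ZEB2 LOC147804 (0.978), PPP1R13B (0.973) and ZNF212 (0.968). In CPM, PPIB was highest in replicates 2, 7 and 8 (238, 199 and 286), where ZEB1 and TMEM2 were lowest. The likeness of PPIB to ZEB1 was thus limited to the CQN scale. TWIST2 and VIM had looser neighbours, led by ZKSCAN5 (0.912) and FAM50B (0.908). All these genes were picked for the highest r among 11979 over only 8 libraries. Such r can be high through selection alone, and shared regulation was not tested.

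The other genes of the programme were read from lists with 174 distinct genes beside the 10, of which 125 were detected. Of the 29 genes for inducing signals, 24 were detected, against 51.3% of all genes. The list median was 94.4 CPM, against 1.97 CPM over all genes in the table. ENG, a TGF-beta co-receptor, had 690 ± 260 CPM, TGFBR2, the type II receptor, 577 ± 114 CPM, and EDN1, the endothelin precursor, 476 ± 141 CPM (SD, n = 8). The genes below the threshold were BMP2 (0.119 CPM), the Notch targets HEY1 (1.07) and HEY2 (1.23), and the cytokines IL1B (0.331) and TNF (0.0633). SMAD7, SKIL and HES1 varied beyond the trend, 3 of 24 genes against 4.66% of all genes. With length and GC trends removed 4 passed, against 6.59% of all genes, with JAG1 and EDN1 in and SKIL out (edgeR adjusted p = 0.0646).

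Partners of the factors were nearly all present. Of 22 genes 19 were detected, against 51.3% of all genes, with a median of 90.5 CPM. The E proteins that pair with Twist had 126 ± 21.3 CPM (TCF3), 111 ± 28.2 CPM (TCF4) and 86.7 ± 27.6 CPM (TCF12) (SD, n = 8). Of the ID proteins, which sequester E proteins, ID3 (258 ± 75.4 CPM) and ID1 (222 ± 91.5) were the highest of the list, and ID2 had 13.4 ± 5.80 CPM. The deacetylase HDAC2 came after ID1 at 202 ± 11.5 CPM. ID4, HAND1 and HAND2 were not detected (0.0904, 0.201 and 0 CPM, the last with 0 counts in every library). The CtBP corepressors of the ZEB proteins had 94.2 ± 20.8 (CTBP1) and 109 ± 2.11 CPM (CTBP2). Of the 19 genes, ID1 varied beyond the trend (edgeR adjusted p = 0.0309), against 4.66% of all genes, and 4 did with length and GC trends removed, against 6.59%.

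Of 19 other factors linked to the transition, 9 were detected, a share near the 51.3% of all genes. WWTR1 (250 ± 48.1 CPM), TEAD1 (184 ± 70.3) and HMGA2 (127 ± 52.5) were the highest (SD, n = 8). KLF4, TEAD1 and HMGA2 varied beyond the trend, 3 of 9 against 4.66% of all genes. With length and GC trends removed TEAD1 did not pass (edgeR adjusted p = 0.26) and FOXC2 did. In the list of SRF and contractile genes, 21 of 26 were detected, against 51.3% of all genes, with a median of 95.6 CPM. FLNA (2364 ± 258 CPM), TPM4 (1192 ± 134) and TPM1 (844 ± 89.7) led it, and SRF itself had 89.3 ± 10.96 CPM. The SRF coactivators MKL1 and MKL2 had 55.4 and 88.8 CPM. MYOCD, the smooth muscle coactivator, had 0.0107 CPM, and TAGLN3, ACTG2, DES and SYNPO2 (1.31 CPM) were the other genes below the threshold. MYH11, the smooth muscle myosin, had 2.66 ± 0.693 CPM. TPM2 varied beyond the trend (edgeR adjusted p = 0.0301), 1 of 21 genes, a share near the 4.66% of all genes. With length and GC trends removed its edgeR adjusted p was 1.0.

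Of 24 mesenchymal and matrix genes 14 were detected, a share near the 51.3% of all genes. FN1 (5495 ± 1953 CPM) and CTGF (4931 ± 417) were the highest, and CDH2, the N-cadherin gene, had 168 ± 30.1 CPM (SD, n = 8). The fibroblast collagens COL1A2 and COL1A1 had 134 ± 23.0 and 33.5 ± 7.52 CPM (SD, n = 8). The fibroblast genes COL3A1, PDGFRA, POSTN, LUM and DCN had means of 0.0868, 0.101, 0.128, 0.00999 and 0.00554 CPM. THY1 varied beyond the trend, 1 of 14 against 4.66% of all genes, and 4 of 14 did with length and GC trends removed, against 6.59%. Of the 20 endothelial genes, 19 were detected, against 51.3% of all genes. The list median was 157 CPM, and MCAM (1096 ± 57.1), CDH5 (649 ± 152) and VWF (600.4 ± 206) led it. NOS3 was below the threshold at 0.920 CPM. CLDN5, SOX18 and ETS1 varied beyond the trend, 3 of 19 against 4.66% of all genes. With length and GC trends removed PECAM1, VWF and SOX17 passed as well, 6 of 19 against 6.59%.

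Of 20 epithelial genes known as targets of E-box repressors, 9 were detected, a share near the 51.3% of all genes. The list median was 0.969 CPM, against 1.97 CPM over all genes in the table. CDH1, the E-cadherin gene, had 0.309 ± 0.106 CPM, and OVOL1, OVOL2, CRB3 and ESRP2 were each under 0.4 CPM on average. KRT18 (358 ± 74.0 CPM), JUP (222 ± 73.1) and DSP (28.1 ± 14.1) were the highest (SD, n = 8), and DSP varied beyond the trend (edgeR adjusted p = 5.09e-06), 1 of 9 against 4.66% of all genes. Of 15 partners of vimentin, 10 were detected, against 51.3% of all genes. PLEC (846 ± 207 CPM), LMNA (770 ± 181) and MACF1 (640.4 ± 269) were at the top. DES, GFAP, PRPH, NEFL and NEFM were under the threshold (0.180, 0.557, 0.830, 1.03 and 1.16 CPM). INA, CRYAB, DST and MACF1 varied beyond the trend, 4 of 10 against 4.66% of all genes. With length and GC trends removed INA and CRYAB passed, 2 of 10 against 6.59%.

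**Figure D5:**
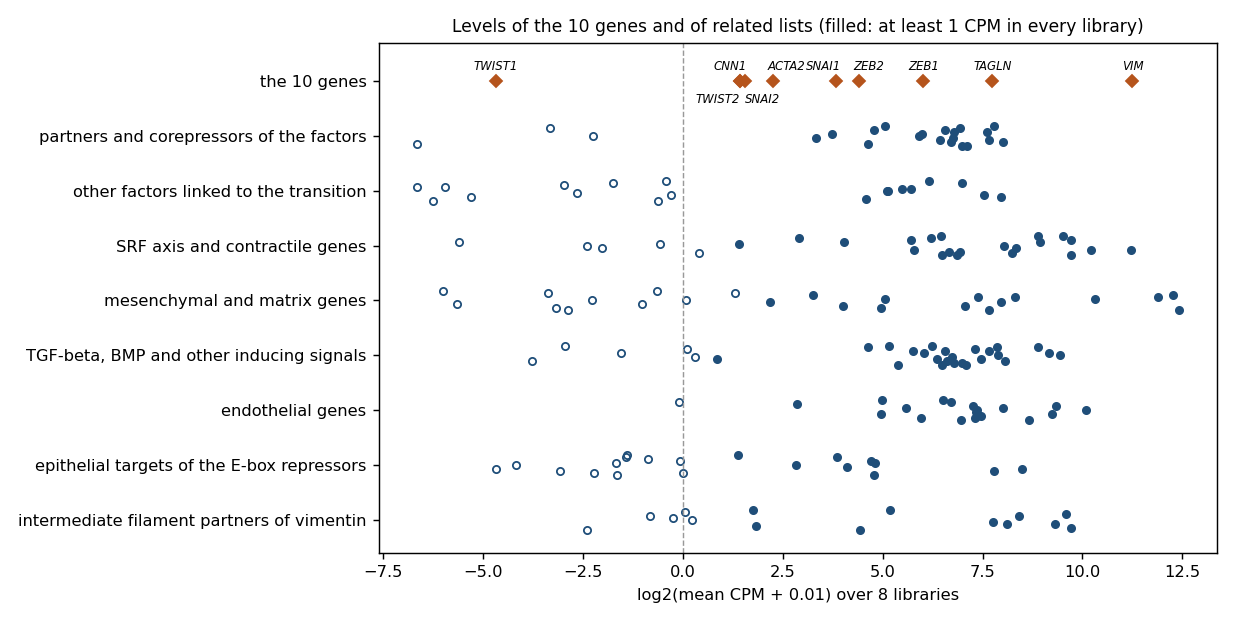
Mean level over 8 libraries, as log2(mean CPM + 0.01) on the horizontal axis, of the 10 genes (diamonds) and of the genes of each list (circles, filled where detected, open otherwise), with the dashed line at 1 CPM. Of the diamonds, TWIST1 lies left of the line and SNAI2, though right of it on average, fell below 1 CPM in replicate 2. Endothelial genes lie almost all to the right. Of the 20 epithelial targets 9 are filled, a share near the 51.3% of all genes.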

How the data were processed

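RNA was measured in 8 libraries of 1 group. The authors deposited whole-number counts per gene, with all 186768 values even, and CQN-normalised log2 values for 13962 genes, the log base being judged from how they follow log2 counts per length. The submitters' processing notes name hg19, TopHat2 2.0.6, HTSeq and CASAVA 1.9, with no roles. The annotation, strand setting and CQN parameters are not given in the sources used here. Replicate numbers tied each of the 16 value columns to its sample.

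CPM used TMM-scaled library sizes (edgeR 4.0.16, R 4.3.3). RPKM used canonical transcript lengths from GENCODE 44 on GRCh37, available for 97.1% of detected genes. Table starts were read as counting from 0, since 5734 annotated starts were 1 higher and 652 equal. Variation was tested in edgeR by goodness of fit to the dispersion trend in an intercept-only model, adjusted over all detected genes. Trends on length and GC content were fitted with mgcv 1.9.3. Pairs used log2(RPKM + 0.1) and 256 sign patterns, adjusted over 45 pairs. Correlations used 40320 permutations and were added after values were seen. Tested on simulated counts for the variation test over 11820 genes, 176 of 198 genes raised 4-fold in 1 library were called. Of the genes left unchanged there, 3 were called. With no gene changed, 0 of 11832 were called. Whether these rates hold for the deposited libraries, with their differing length slopes, was not tested.

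Named genes were the 10 members, the 3 highest of each list and its undetected genes where 5 or fewer, paralogs and neighbours, and the 3 genes with the most similar CQN values. One item that this rule names is not reported here. Genes named outside this rule were chosen after their values were seen. The members and lists were chosen with earlier results of these data known. Alternatives covered scaling, filters, lengths, pseudocounts, dispersion trends, CQN values and omitted libraries.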

Additional observations from a re-analysis of the deposited data

How the results depend on the processing

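The number of the 10 genes detected was 8, and ranged from 6 at 2 CPM to 9 at 0.5 CPM, with 8 to 9 when single libraries were left out. The number above the variation trend was 0, and 0 without any single library. It was 1 with no filter beyond a summed count above 0, 1 with at least 10 counts in every library, 5 with the DESeq2 fitted trend, 2 with length and GC trends removed, 1 with these trends taken from exons within the listed intervals (added after seeing the data), and 2 without replicates 2, 7 and 8 together. Of the 45 pairs, 40 passed, and 38 to 40 without single libraries. The number was 23 of 28 with detected genes only, where fewer pairs were tested, 33 of 36 on CQN values and 38 with the union of exons.

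Reversed log2 ratios were ZEB1 to SNAI1 (-0.14), ZEB2 to CNN1 (-0.32), TWIST2 to ACTA2 (0.86) and ACTA2 to CNN1 (-0.29) with the union of exons, TWIST2 to ACTA2 (0.26) with exons within the listed interval, and ZEB2 to TWIST2 (1.49), ZEB2 to ACTA2 (0.69) and TWIST2 to CNN1 (-0.21) on CQN values. Their causes were not tested. The pair tests were not run without replicates 2, 7 and 8 together, since 5 libraries give no p below 0.0625. No paired analysis was possible because all samples form 1 group. Depth limits SNAI2, TWIST1, TWIST2, CNN1 and the hairpin genes, with 830, 849 and 904 read pairs in all for SNAI2, TWIST2 and CNN1. None of the 19 sets of 8 values had a library far from the rest by Dixon's test. This test takes the gap to the nearest value, so it can miss libraries that stand apart together. For ACTA2 in CPM, where replicates 2 and 8 did, the gap was 0.101 of the range.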

Other observations

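With the trends on length and GC content removed, ID1, ID2 and ID3, which encode inhibitors of the E proteins that pair with Twist, varied beyond the trend (edgeR adjusted p = 1.12e-09, 4.17e-06 and 0.0498), while TCF3, TCF4 and TCF12 each had an edgeR adjusted p of 1.0. Under this setting 6.59% of detected genes were called, and HDAC2, from the same list of partners, passed as well (edgeR adjusted p = 3.53e-05). Without removal of these trends ID1 passed (edgeR adjusted p = 0.0309), and ID2 and ID3 did not (0.0691 and 0.54 by the same test). These genes were picked after their values were seen. In CPM, from which the trends were not removed, ID1 ranged from 87.3 to 380.5 and ID2 from 6.39 to 23.0. The feedback inhibitor SMAD7 ranged from 19.6 to 100.5 CPM (edgeR adjusted p = 6.57e-21 with the trends removed), HES1 from 22.5 to 85.7 CPM (3.39e-19 by the same test) and KLF4 from 11.4 to 52.4 CPM (1.27e-12).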
